A study of Mus musculus with 8 samples.

Results

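The open chromatin of a pair of unperturbed mouse embryonic stem cell lines was compared region by region. Ubc9-control cells are of the v6.5 line and are labelled as the control of a Tet-Off depletion of Ubc9, the SUMO-conjugating enzyme. H1-WT cells are the linker histone wild type of a line that the labels take from an earlier publication. The members were all regions of both control lists, 46847 in the Ubc9-control list and 55489 in the H1-WT list, which makes 102336 of the 209105 regions in the 4 lists of the series. Regions were matched by position: a region with at least 1 bp of overlap in the other control list was called shared, and one without any overlap unshared.

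The assay, ATAC-seq, uses a transposase that cuts and tags DNA where chromatin is accessible. The series holds 8 samples in 4 groups of 2 replicates. The other 2 groups are Ubc9-depleted v6.5 cells, given doxycycline for 72 hours, and H1-TKO cells, which lack H1.2, H1.3 and H1.4. The lists of these perturbed cells were used here only to look up regions of the control lists. All groups were kept in 2i/LIF medium for 4 passages, and 50000 cells and 12 PCR cycles were used per library. Both replicates of a group were pooled into a single list, which leaves no spread between replicates and no test of any difference below. Line, genotype and sequencing library differ together between the lists and cannot be told apart. Intervals in the text are exact (Clopper-Pearson) 95% intervals and cover counting error only.

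In 2i/LIF medium, inhibitors of the MEK and GSK3 kinases together with the cytokine LIF hold mouse embryonic stem cells in the naive state, which resembles the epiblast before implantation. LIF acts through its receptor subunits Lifr and Il6st (gp130), the JAK kinases and the transcription factor Stat3, while GSK3 inhibition relieves repression by Tcf7l1. Promoters of most expressed genes are open and often lie in CpG islands, whereas open regions far from genes are enhancers and other regulatory sites that vary more between cell states and strains.

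Because the lists were built in different ways, the scores of the regions, which the authors deposited and which were read as minus 10 times log10 of the peak caller's p, were never compared directly. Each region was instead given its percentile within its own list, from 0 for the lowest to 100 for the highest score. A gene was counted as having a region when 1 lay within 1000 bp of an annotated start, or of either gene end for the 4395 of 21887 protein-coding genes whose strand was not known, and its highest-scoring region gave its percentile. The highest-scoring regions of a gene in the control lists need not overlap each other. Differences are Ubc9-control minus H1-WT, in percentile points.

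The promoters of 6 genes are shown since they span the patterns described below: Lifr and Gnl3 had a region in the Ubc9-control list only, Tfcp2l1 and Nanog in both, Anxa1 in both but far higher in H1-WT, and Mettl3 in the H1-WT list only. Each runs 5′ to 3′ on the gene's strand from 250 bases before to 50 bases after an annotated start, from RefSeq with the build GRCm38.p6 (mm10), and capitals mark CpG dinucleotides. The windows are chr15:7129322-7129621 on the plus strand for Lifr, chr14:31019082-31019381 on the minus strand for Gnl3, chr1:118627695-118627994 on the plus strand for Tfcp2l1, chr6:122707239-122707538 on the plus strand for Nanog, chr19:20390622-20390921 on the minus strand for Anxa1 and chr14:52305075-52305374 on the minus strand for Mettl3.
Lifr: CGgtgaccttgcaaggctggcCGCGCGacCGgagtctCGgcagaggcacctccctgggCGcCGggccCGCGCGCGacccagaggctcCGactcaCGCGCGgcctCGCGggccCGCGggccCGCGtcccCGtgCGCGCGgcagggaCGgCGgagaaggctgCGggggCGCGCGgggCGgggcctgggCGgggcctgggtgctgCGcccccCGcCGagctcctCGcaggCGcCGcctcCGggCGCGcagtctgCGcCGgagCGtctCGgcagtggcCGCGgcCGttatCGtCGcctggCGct
Gnl3: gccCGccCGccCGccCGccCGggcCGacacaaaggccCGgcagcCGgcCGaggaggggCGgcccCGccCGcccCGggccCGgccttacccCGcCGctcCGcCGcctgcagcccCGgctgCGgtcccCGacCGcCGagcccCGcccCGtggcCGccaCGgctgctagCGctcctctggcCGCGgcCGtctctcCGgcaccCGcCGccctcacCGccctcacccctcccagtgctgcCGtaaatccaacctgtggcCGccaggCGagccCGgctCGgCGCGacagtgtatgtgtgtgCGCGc
Tfcp2l1: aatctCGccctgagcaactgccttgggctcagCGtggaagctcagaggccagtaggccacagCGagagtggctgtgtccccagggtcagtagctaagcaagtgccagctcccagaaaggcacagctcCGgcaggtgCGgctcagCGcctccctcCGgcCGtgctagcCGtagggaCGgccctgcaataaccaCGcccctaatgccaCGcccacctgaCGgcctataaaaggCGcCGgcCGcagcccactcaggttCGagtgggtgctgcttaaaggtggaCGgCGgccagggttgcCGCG
Nanog: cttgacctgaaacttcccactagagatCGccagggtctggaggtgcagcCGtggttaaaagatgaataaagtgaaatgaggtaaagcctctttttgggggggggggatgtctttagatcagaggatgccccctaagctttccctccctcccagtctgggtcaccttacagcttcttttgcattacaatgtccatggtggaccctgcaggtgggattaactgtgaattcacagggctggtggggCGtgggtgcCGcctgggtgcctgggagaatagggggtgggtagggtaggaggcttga
Anxa1: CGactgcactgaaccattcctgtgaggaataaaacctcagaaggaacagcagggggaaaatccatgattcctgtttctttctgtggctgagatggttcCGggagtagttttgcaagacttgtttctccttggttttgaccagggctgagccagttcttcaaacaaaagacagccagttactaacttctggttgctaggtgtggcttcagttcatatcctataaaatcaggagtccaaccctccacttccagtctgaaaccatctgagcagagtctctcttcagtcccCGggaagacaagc
Mettl3: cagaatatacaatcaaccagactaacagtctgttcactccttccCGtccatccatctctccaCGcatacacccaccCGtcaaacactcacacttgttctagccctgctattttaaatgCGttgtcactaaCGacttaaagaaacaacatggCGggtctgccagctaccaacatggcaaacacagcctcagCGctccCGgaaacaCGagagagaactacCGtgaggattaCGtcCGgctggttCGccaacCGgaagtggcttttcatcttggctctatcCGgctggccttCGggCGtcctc
The first pair is the most GC-rich, with 53 CpGs and 81.3% GC for Lifr and 44 CpGs and 80.3% GC for Gnl3. Tfcp2l1 had 21 CpGs and 65.3% GC, Nanog 4 and 54.3%, Anxa1 3 and 47.3%, and Mettl3 17 and 52.0%.

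Most regions of each line were found in the other. Of the Ubc9-control regions 75.02% (74.6 to 75.4) had a partner in the H1-WT list, which left 11704 of 46847 unshared (25%), and of the H1-WT regions 69.1% (68.7 to 69.4) had one in the Ubc9-control list, which left 17170 of 55489 unshared (30.9%). The order of these shares depended on the list sizes: among the 20000 highest-scoring regions of each list, 69.8% of Ubc9-control regions and 73.1% of H1-WT regions had a partner. One Ubc9-control region often met several H1-WT regions, 2 or more in 2886 of 35143 cases (8.21%), whereas 0 of 38319 shared H1-WT regions met more than 1 Ubc9-control region, and so the share of each list is given on its own.

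Whether a region was shared went with its score. In the top 20% of each list by score 98.6% of Ubc9-control regions (98.4 to 98.9) and 97.2% of H1-WT regions (96.8 to 97.5) were shared, against 45.1% (44.1 to 46.1) and 41.4% (40.5 to 42.4) in the lowest 20%. Only 128 Ubc9-control and 314 H1-WT regions of the top 20% lacked a partner. Unshared regions sat at a median percentile of 23.3 in the Ubc9-control list and 27.5 in the H1-WT list. A region opened weakly in all cells and one opened in a fraction of the cells cannot be told apart in such bulk samples.

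**Figure D1:**
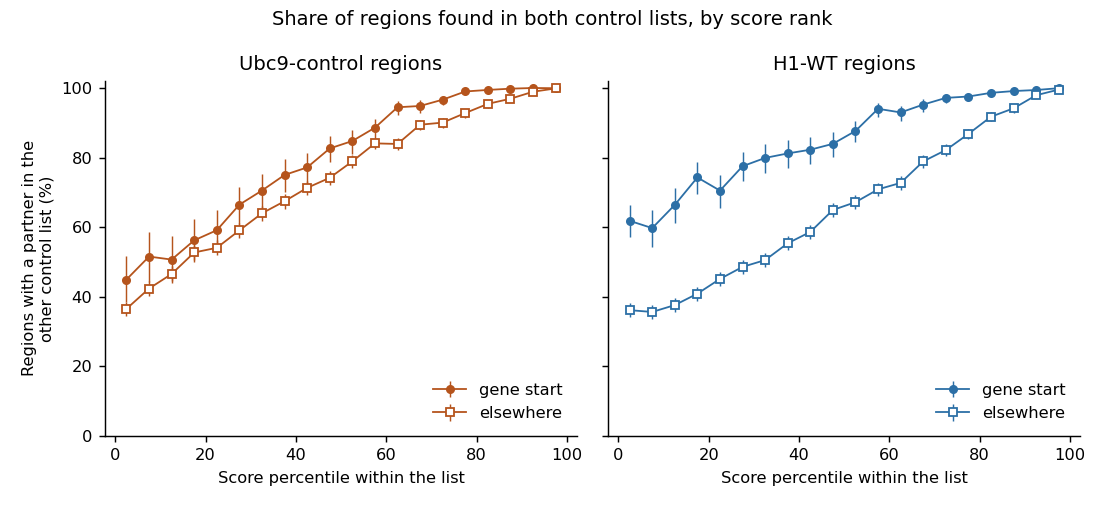
Share of regions with a partner in the other control list (vertical axis, percent) by score percentile within the list in steps of 5 points (horizontal axis), for Ubc9-control (left) and H1-WT (right); filled circles are regions at gene starts, open squares all other regions, and bars exact 95% intervals. Among the lowest-scoring H1-WT regions 61.8% at gene starts but 36.1% elsewhere were shared, and in the Ubc9-control list the values were 44.9% and 36.5%.

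Promoters were the part of the open genome that the lines had most in common. At gene starts 89.1% of Ubc9-control regions (88.5 to 89.6) and 90.1% of H1-WT regions (89.6 to 90.6) were shared. Inside genes the shares were 72.2% in Ubc9-control and 62.8% in H1-WT, and outside genes 69.3% and 62.7%. Regions lying on an annotated start itself were shared in 91.4% of Ubc9-control and 94.6% of H1-WT cases, and those over 100 kb from any start in 70.8% and 61.6%. Gene-start regions also scored higher (median percentile 77.4 in Ubc9-control and 79.6 in H1-WT on the start, against 45.9 and 48.5 at over 100 kb), but as the plot by score rank shows they were more often shared than other regions of similar rank, mainly in the H1-WT list. Unshared regions lay at gene starts in 10.5% of Ubc9-control cases (9.98 to 11.1) and 7.38% of H1-WT cases (6.998 to 7.79).

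The order of regions by score was also closest at promoters. Over the 35143 shared Ubc9-control regions, each set against its highest-scoring H1-WT partner, Spearman's rho between the percentiles was 0.70 and Pearson's r was 0.66. At the 10028 shared regions of gene starts rho was 0.83, against 0.61 inside genes and 0.61 outside genes. These values describe regions that share the libraries, their depth and base composition, and are not tests. The 2 percentiles lay within 10 points of each other at 59.1% of shared regions at gene starts, but at 39.5% inside genes and 39.4% outside. Median differences were 0.06, -3.21 and -2.10 points at gene starts, inside genes and outside genes.

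Looking the unshared regions up in the lists of the perturbed cells showed how often a region recurred. Unshared Ubc9-control regions overlapped a region of Ubc9-depleted cells, of the same line, in 36.5% of cases (35.6 to 37.3) and a region of H1-TKO cells, of the other line, in 37.6% (36.7 to 38.5). Unshared H1-WT regions overlapped a region of Ubc9-depleted cells in 15.2% (14.6 to 15.7) and of H1-TKO cells in 44.4% (43.6 to 45.1). In neither perturbed list were 42.0% of unshared Ubc9-control and 48.9% of unshared H1-WT regions, against 9.93% and 10.5% of the shared ones. Shared regions of the Ubc9-control list were found in Ubc9-depleted cells in 63.5% and in H1-TKO cells in 85.4% of cases, and those of the H1-WT list in 64.0% and 83.2%, so the H1-TKO list held more of the shared regions whichever list they were taken from. These lists differ in size and build, which limits how far the shares can be compared.

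At the level of genes the lines overlapped widely. Of 21887 genes, 10670 had a region in both lists, 9276 in neither, 1138 in the Ubc9-control list only (5.2%) and 803 in the H1-WT list only (3.67%). Counting only regions that score 100 or more, the numbers in 1 list only were 489 and 337. In 96 of the 1138 genes and 24 of the 803, the other list had a region outside the window that overlapped the gene's region or lay within 1000 bp of it. Genes of that kind are called window-edge cases. Genes found in Ubc9-control only had a region in Ubc9-depleted cells in 76.5% of cases and in H1-TKO cells in 45.5%, and genes found in H1-WT only had one in 40.6% and 51.8%. Among the 10670 genes in both lists the percentiles correlated with a rho of 0.83 and the median difference was 0.10 points. The percentile was higher by 30 points or more in Ubc9-control for 580 genes (5.44%) and lower by as much for 443 (4.15%).

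Those rank differences could be looked up in the perturbed lists, which did not enter the choice of these genes. Of the 482 genes of the higher group that had a region in all 4 lists, 403 or 83.6% also ranked higher in Ubc9-depleted than in H1-TKO cells, with a median difference of 19.2 points. Of 300 genes of the lower group, 97 or 32.3% (27.1 to 37.9) did, with a median of -10.9 points. Over all 9632 genes in the 4 lists the share was 55.4% and the median 0.99 points.

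The core pluripotency factors each had a region counted at an annotated start in both lines. Pou5f1 (Oct4) stood at percentile 23.3 in Ubc9-control and 30.1 in H1-WT, Nanog at 67.2 and 58.2, and Sox2 at 76.4 and 57.6. The Pou5f1 gene spans chr17:35506032-35510777. Its regions, chr17:35509364-35509644 in Ubc9-control and chr17:35509382-35509724 in H1-WT, lie inside the gene and reach neither of its ends. The Pou5f1 percentiles therefore do not describe the outer start of the gene. Of the 8 stem cell markers used to check the label, 7 had a gene-start region in both lists, Klf2, Klf4, Zfp42 (Rex1) and Tfcp2l1 among them, and Esrrb had none in either. Of 12 fibroblast and feeder cell markers, Fbn1 had a region in both lists, Col1a1 and S100a4 in Ubc9-control only, Col1a2, Meox2 and Tbx15 in H1-WT only, and the other 6, among them Col3a1, Thy1 and Pdgfra, in neither. The highest-ranked of these regions was that of Col1a2, at percentile 40.5 in H1-WT. Of all genes 48.8% had a region in both lists and 42.4% in neither. The part of feeder cells in any difference was not tested.

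Naive pluripotency genes differed in rank in both directions. Of 33 members 25 had a region in both lists, with a median difference of -1.18 points against 0.10 over all genes, 2 in Ubc9-control only and 3 in H1-WT only. Of all genes 48.8% were in both lists, 5.2% in Ubc9-control only and 3.67% in H1-WT only. Tfcp2l1, a transcription factor that maintains the naive state downstream of LIF and GSK3 inhibition, stood at 61.3 in Ubc9-control but at 0.96 in H1-WT, where its region only just passed the score minimum. Gbx2, a homeobox factor and Stat3 target, stood at 62.8 in Ubc9-control and 13.8 in H1-WT. In Ubc9-depleted and H1-TKO cells Tfcp2l1 stood at 74.4 and 60.7 and Gbx2 at 84.7 and 56.4. Their low percentiles in H1-WT were thus not found in the other list of that line. Tdh, the threonine dehydrogenase that mouse stem cells depend on, went the other way with 42.8 in Ubc9-control and 80.7 in H1-WT, as did Tdgf1 (Cripto), a Nodal co-receptor, with 41.0 and 76.9, and Rex2, a zinc-finger gene, with 0.08 and 49.1. The gene Trim71, whose product binds RNA and represses differentiation messages, had a region in H1-WT only (percentile 50.5), as did Dppa4 (44.1) and Pecam1 (2.50), while Gdf3, a TGF-beta family ligand, had one in Ubc9-control only (11.6) and Dppa3 was a window-edge case. The highest-ranked members, Klf5 (99.4 in Ubc9-control and 98.8 in H1-WT), Zfp42 (98.6 and 99.0) and Tbx3 (96.5 and 90.4), lay close together.

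Among core, naive and LIF/STAT3 pathway genes, the receptor of LIF had the highest percentile of those found in 1 list only. Lifr had a region at percentile 83.5 in Ubc9-control and none in H1-WT, and stood at 94.7 in Ubc9-depleted and 16.2 in H1-TKO cells. Its region, chr15:7129101-7129912, covers all 300 bases of the promoter printed above. Ptpn11 (Shp2), the phosphatase that links LIF to ERK signalling, was also found in Ubc9-control only (53.9) and in Ubc9-depleted cells (84.3). The co-receptor Il6st stood at 85.2 in Ubc9-control and 73.6 in H1-WT, the kinases Jak1 at 98.1 and 97.3 and Jak2 at 66.4 and 49.4, and Stat3 at 96.0 and 91.5. Socs1, a feedback inhibitor, stood at 52.9 in Ubc9-control and 21.6 in H1-WT, whereas the feedback inhibitor Cish had 65.4 and 79.0. Over the list of 14 genes, 10 were in both lists with a median difference of 3.68 points and 2 in neither, beside 48.8% and 42.4% of all genes.

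**Figure D2:**
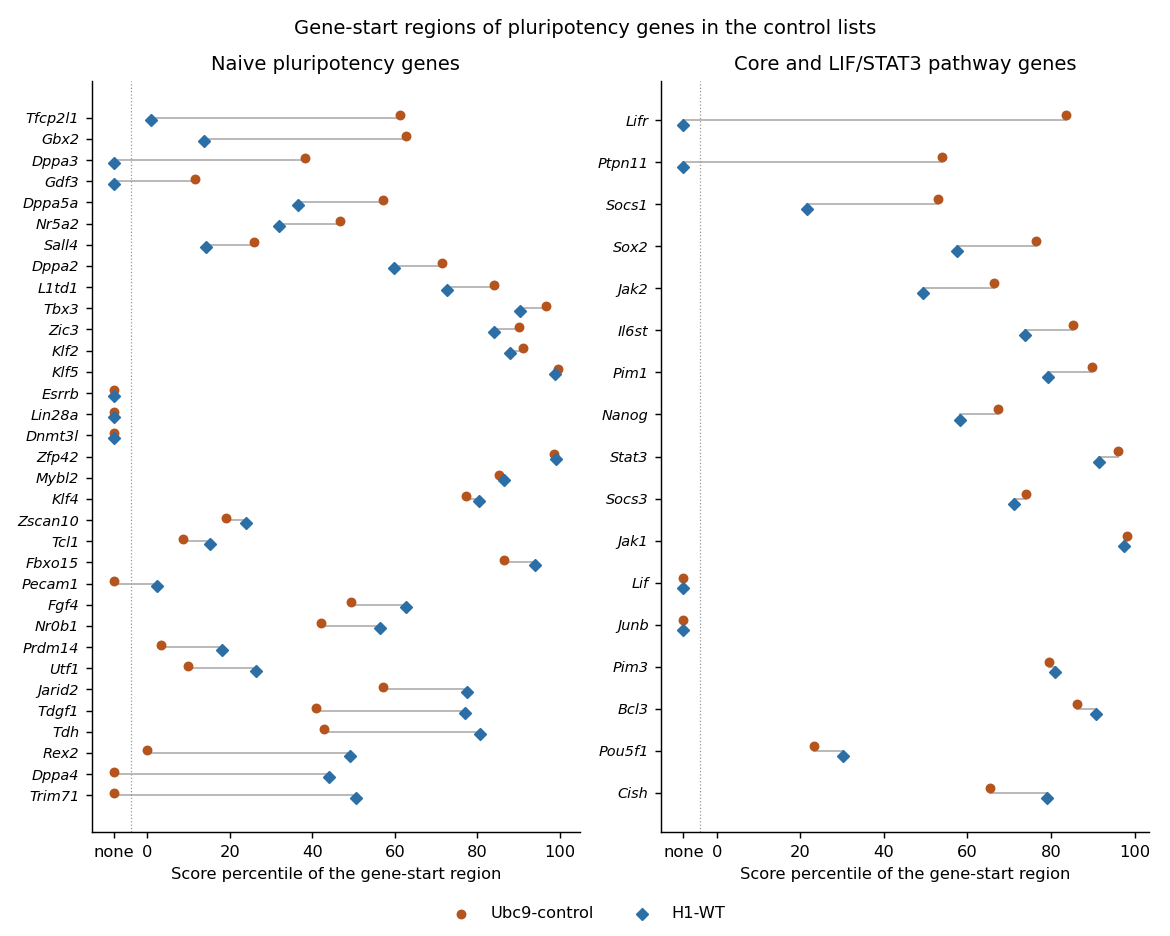
Score percentile of the gene-start region (horizontal axis; "none" where no region was in the window) for naive pluripotency genes (left) and for core and LIF/STAT3 pathway genes (right), in Ubc9-control (circles) and H1-WT (diamonds), ordered by the difference. Farthest to the Ubc9-control side lie Tfcp2l1 in the left panel and Lifr in the right one. Farthest to the H1-WT side in the left panel lie Trim71 and Dppa4.

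Targets of the inhibited kinases moved in both directions as well. Tcf7l1, the repressor that GSK3 inhibition relieves, stood at 78.2 in Ubc9-control and 24.7 in H1-WT, and its gene with 10 kb on each side held 7 unshared Ubc9-control regions and 0 unshared H1-WT regions. Ctnnb1, which encodes beta-catenin, stood at 83.3 and 50.6. Rnf43 (50.4), Ccnd1 (39.1) and Tcf7 (1.73), by contrast, had a region in H1-WT only, and Lgr5, a receptor that potentiates WNT signals, stood at 32.1 in Ubc9-control and 66.8 in H1-WT. Rnf43 stood at 70.3 in Ubc9-depleted and 6.37 in H1-TKO cells. Tcf7 had a region in Ubc9-depleted cells (68.5) but none in H1-TKO cells, and Ccnd1 had none in either. Of 18 WNT and GSK3 targets 11 were in both lists, with a median difference of -0.07 points, 0 in Ubc9-control only and 3 in H1-WT only. Over all genes these shares were 48.8%, 5.2% and 3.67%. Among 18 FGF and ERK targets, Spry1, a feedback inhibitor, stood at 58.6 in Ubc9-control and 14.4 in H1-WT, Spred2 at 61.3 and 33.7 and Spred1 at 42.9 and 66.9, with a median of 3.81 points over 16 genes in both lists. The Spry1 regions of the lists did not overlap.

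Genes of the primed and formative states, which follow the naive one, were divided among the classes. Of 19 members 5 had one in Ubc9-control only, 2 in H1-WT only and 6 in both, against 5.2% and 3.67% of all genes in 1 list only. Pou3f1 (Oct6), a factor of the formative epiblast, stood at 70.5 in Ubc9-control with none in H1-WT, and at 94.7 in Ubc9-depleted and 54.4 in H1-TKO cells. Dnmt3a, a de novo DNA methyltransferase, had 44.3 in Ubc9-control only, Sox3 had 27.4, and Tead2 was a window-edge case. Nodal (14.4) and Sfrp2 (13.9) had weak regions in H1-WT only. Sox4 stood at 14.6 in Ubc9-control and 48.1 in H1-WT, at regions that did not overlap.

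Lineage genes varied in how many were open. No region was found in either list for 23 of 28 genes of the 2-cell stage, 13 of 22 of primitive endoderm, 16 of 25 of mesoderm and endoderm and 25 of 39 Hox genes, but for 11 of 24 neural and 9 of 20 trophectoderm genes, beside 42.4% of all genes. Differences that stood out in rank were the neural factors Neurog2, at 80.4 in Ubc9-control and 24.5 in H1-WT, and Olig2, with 68.2 in H1-WT only. The Neurog2 regions of the lists did not overlap, so its percentiles belong to different positions. The trophectoderm keratin Krt8 had a region at 84.7 in H1-WT only, chr15:102003077-102003510, which lies downstream of its start and covers 0 bases of the 300 base promoter window. Among Hox genes, Hoxd8 stood at 1.98 in Ubc9-control and 53.1 in H1-WT, and of the control lists Hoxa4 (50.9) and Hoxa5 (48.4) had regions in H1-WT only. Hoxa4 and Hoxa5 also had a region in Ubc9-depleted cells (74.9 and 46.8) and none in H1-TKO cells. Dab2, of primitive endoderm, stood at 25.6 in Ubc9-control and 69.0 in H1-WT, and Sox17, counted in Ubc9-control only, was a window-edge case.

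Among chromatin regulators, polycomb genes had 5 of 27 members in Ubc9-control only and 1 in H1-WT only, beside 5.2% and 3.67% of all genes. Polycomb complexes place repressive marks on histones H3 and H2A. Cbx2, a reader subunit, stood at 69.2 and Ezh1, a histone methyltransferase, at 64.6 in Ubc9-control only, and both recurred in Ubc9-depleted cells (73.9 and 55.4) and were in no H1-TKO region. Eed, a core subunit of PRC2, stood at 93.3 in Ubc9-control and 56.0 in H1-WT, whereas Phc1 stood at 46.9 and 80.6. The median over the 19 polycomb genes in both lists was 6.71 points. Genes that silence repeats were open in both lists in 23 of 24 cases, beside 48.8% of all genes, and the demethylase gene Kdm1a (Lsd1) stood at 62.8 in Ubc9-control and 8.27 in H1-WT. In the DNA methylation list Tdg, a glycosylase of active demethylation, stood at 17.4 and 52.5.

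The pathways that the series perturbs were also compared in their unperturbed state. Of 21 SUMO pathway genes 16 were in both lists, with a median difference of 9.96 points. Sumo2 stood at 90.2 in Ubc9-control and 54.2 in H1-WT and Sae1, a subunit of the activating enzyme, at 51.3 and 15.6, while the deconjugating proteases Senp6 (40.5 and 78.7) and Senp7 (43.6 and 69.8) ranked lower in Ubc9-control. Senp3 (64.3) and Senp1 (44.3) had a region in Ubc9-control only and Pml, which organizes nuclear bodies, in H1-WT only (23.2). Of 10 linker histone genes 4 were in both lists with a median of -25.0 points, led by H1f4 at 17.2 in Ubc9-control and 52.1 in H1-WT, and H1f7 (18.7), H1f10 (18.1) and H1f1 (11.6) had weak regions in Ubc9-control only. Beside both pathways, 48.8% of all genes were in both lists, 5.2% in Ubc9-control only and 3.67% in H1-WT only.

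Imprinted, interferon and p53 genes completed the comparison by pathway. Of 38 imprinted genes 5 were in Ubc9-control only, 4 of them window-edge cases, and 2 in H1-WT only, beside 5.2% and 3.67% of all genes. The growth inhibitor Cdkn1c stood at 62.6 in Ubc9-control and 25.4 in H1-WT and the receptor Igf2r at 68.3 and 31.8, but Zdbf2 at 42.5 and 83.9 and Ppp1r9a at 24.8 and 66.4. Peg3 and Usp29, neighbours with a common region at 93.8 in Ubc9-control, were among the window-edge cases. Interferon-response genes had a median of -2.09 points, with the RNA sensor Ifih1 (Mda5) at 16.4 in Ubc9-control and 74.6 in H1-WT and Ifitm1 at 8.94 and 63.7, but 3 of 32 genes, Zbp1, Irgm2 and the window-edge case Ddx58, were in Ubc9-control only and 0 in H1-WT only, beside the same shares of all genes. All 21 p53 targets had a region in at least 1 list, whereas 42.4% of all genes had none in either. Among these targets Phlda3 had a region in Ubc9-control only (69.0) and Fas, a death receptor, in H1-WT only (49.8). Of 27 germline genes 4 were in Ubc9-control only and 2 in H1-WT only, beside 5.2% and 3.67% of all genes, and the 7 in both had a median of 10.8 points. Housekeeping genes had 22 of 28 members in both lists with a median of 3.82 points, and all 16 matched X-linked genes were in both with a median of 2.92 points. The share of all genes in both lists was 48.8%.

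**Figure D3:**
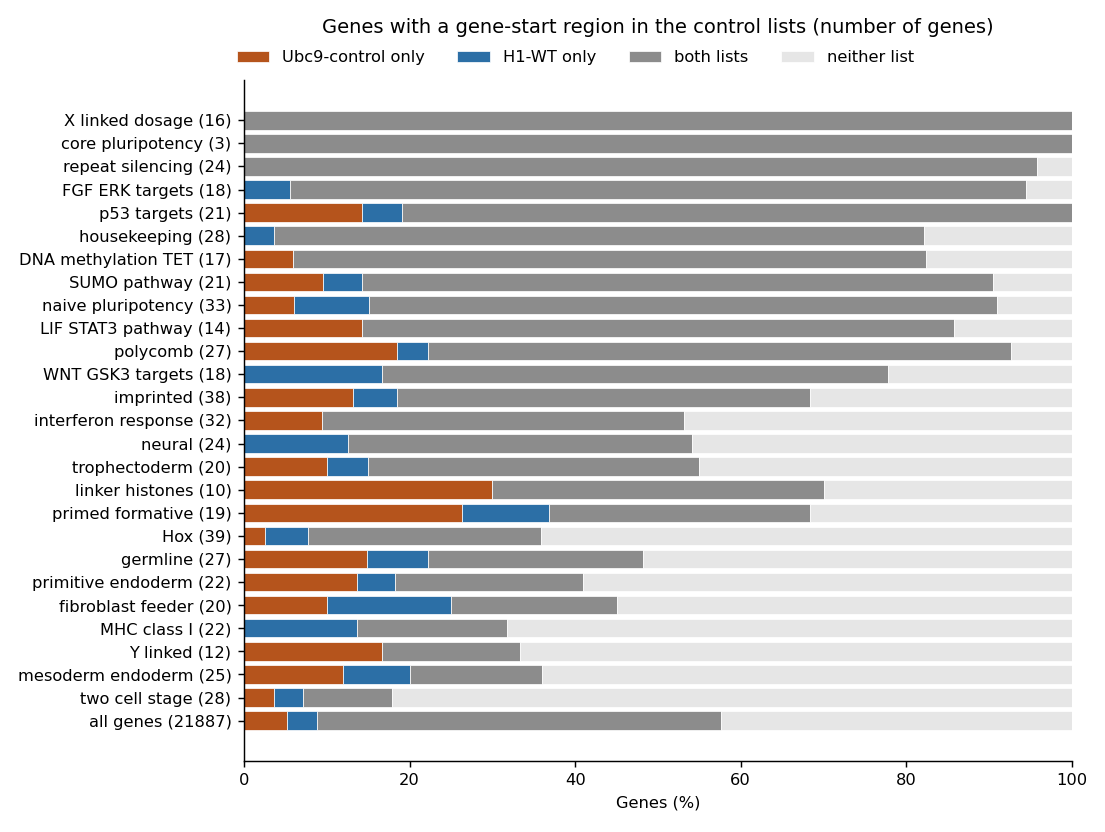
Percent of genes (horizontal axis) with a gene-start region in the Ubc9-control list only, in the H1-WT list only, in both lists and in neither, for 26 gene lists (number of matched genes in parentheses) and for all 21887 genes in the bottom row. Polycomb, germline, primed and linker histone genes carry the widest Ubc9-control only segments among lists of 10 genes or more apart from the Y-linked one, and neural, WNT and MHC class I genes are among those with none.

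The highest-ranked genes found in 1 list only were shown by the same rule in each direction. In Ubc9-control only, Gnl3 (nucleostemin) and Pbrm1, a subunit of a SWI/SNF remodeller, share a region between their divergent starts, chr14:31018906-31019678, at percentile 86.8 in Ubc9-control and 98.2 in Ubc9-depleted cells, with none in H1-TKO cells. Lifr (83.5), Scp2d1 (82.9), Slc26a11 (82.7), Gm14147 (82.4), Sall3 (82.1) and the actin crosslinker Flna (79.2) followed. Slc26a11 and Sall3 had a region in Ubc9-depleted but not in H1-TKO cells. Lifr and Flna had one in both, and Scp2d1 and Gm14147 in H1-TKO but not in Ubc9-depleted cells. In H1-WT only, the region of Mettl3, the RNA m6A methyltransferase, stood at 87.9 and at 89.5 in H1-TKO cells, with none in either list of the v6.5 line. Pnp2 (91.5), Vwa3a (88.7), Gng11 (86.8), Ptpro (86.5) and Krt8 (84.7) likewise had a region in H1-TKO but not in Ubc9-depleted cells. The other 2 of the 8 did not: Gm52481 on the Y chromosome, the highest of all at 96.7, had a region in both Ubc9-depleted (74.9) and H1-TKO cells (48.0), and Defa-ps8 (87.1) had one in Ubc9-depleted (0.76) but not in H1-TKO cells.

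Among genes open in both lists the largest differences exceeded 70 points. Gpat2, an acyltransferase of the germline, stood at 88.3 in Ubc9-control and 4.23 in H1-WT, the histone gene H4c18 at 89.7 and 12.3, Ndufa10, a subunit of respiratory complex I, at 77.8 and 2.29, and Rpl3, a ribosomal protein, at 82.2 and 8.47. The RNA helicase Ddx17 stood at 88.1 and 15.6. Gpat2 stood at 80.9 in Ubc9-depleted and 79.6 in H1-TKO cells, so only the H1-WT list had it low. In the same perturbed lists Ndufa10 stood at 86.0 and 25.8 and Ddx17 at 91.6 and 37.8. For H4c18 and Rpl3 the regions compared did not overlap, so their differences are not those of a common region. The Rpl3 region was chr15:80083194-80083745 in Ubc9-control and chr15:80076770-80077097, at the other gene end, in H1-WT. In the other direction Anxa1, an annexin, stood at 0.52 in Ubc9-control and 83.0 in H1-WT, Olfr972 at 10.12 and 90.8, Kcnj8, a potassium channel, at 13.9 and 87.8, and Supt16, a subunit of the histone chaperone FACT, at 16.7 and 88.8. H4c18 belongs to a family of near-identical genes, whose reads may not be told apart.

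The base composition of promoters differed between the classes of genes. For 21263 promoters with a known sequence, the median GC content was 61.3% where a region was in Ubc9-control only, 57.3% in H1-WT only, 61.7% in both and 48.7% in neither, and the median number of CpGs was 21, 14, 22 and 3. At least 10 CpGs were present in 78.6% (76.1 to 81.0) of Ubc9-control only, 60.7% (57.1 to 64.2) of H1-WT only, 87.5% of shared and 20.3% of closed promoters, and 56.8% of all promoters.

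Grouped by GC content, the promoters found in Ubc9-control only became a larger share of all promoters with each step, while those in H1-WT only did not. They made up 2.58% (2.13 to 3.09) of promoters with 40 to under 50% GC, 4.96% (4.45 to 5.51) at 50 to 60%, 6.35% (5.73 to 7.02) at 60 to 70%, 9.26% (8.13 to 10.5) at 70 to 80% and 16.3% (12.2 to 21.2), or 46 of 282, at 80% or more. Promoters in H1-WT only made up 3.17% (2.67 to 3.73), 4.66% (4.17 to 5.19), 3.66% (3.18 to 4.18), 3.57% (2.87 to 4.39) and 4.26% (2.22 to 7.32) of the same groups. These groups include promoters in neither list, 74.9% at 40 to under 50% GC, 16.9% at 60 to 70% and 20.9% at 80% or more. Promoters in Ubc9-control only, H1-WT only and both lists numbered 113, 139 and 849 at 40 to under 50%. They numbered 358, 206 and 4116 at 60 to 70%, and 46, 12 and 165 at 80% or more. Among promoters with a region, the Ubc9-control only share thus did not rise with each step. Among genes open in both lists the median difference was -1.81 points at 40 to under 50% GC, -0.24 at 50 to 60%, 0.10 at 60 to 70%, 1.29 at 70 to 80% and 2.62 points at 80% or more. The group under 40% held only 36 such genes, with a median of 0.40 points, and 0.97% of its promoters were in Ubc9-control only and 0.59% in H1-WT only. Between the perturbed lists, Ubc9-depleted minus H1-TKO, the medians at 40 to under 50% and at 80% or more were -6.25 and 12.4 points. The groups were formed after the values of promoter classes had been seen. Line and library preparation cannot be told apart here.

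**Figure D4:**
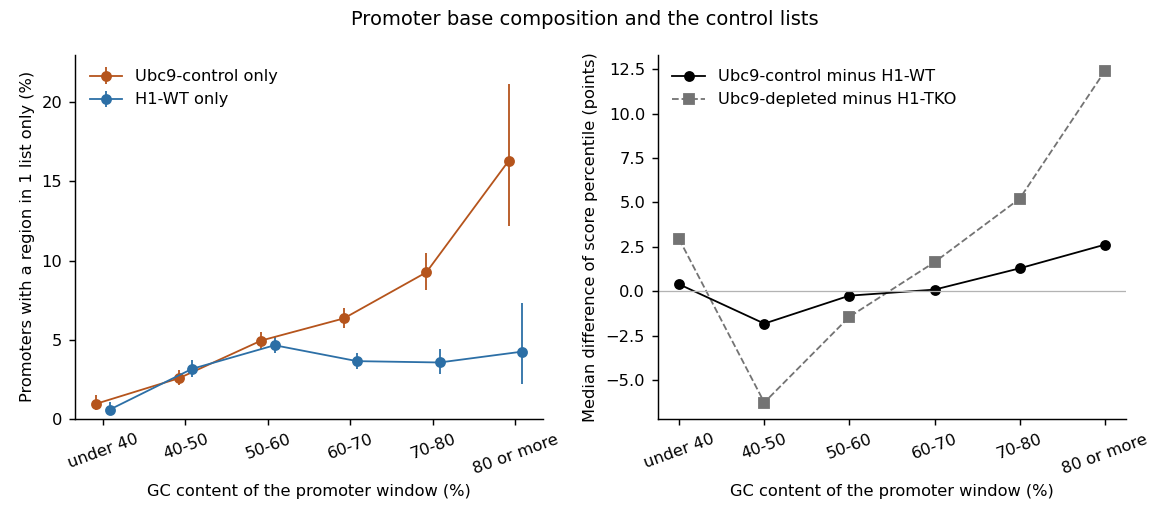
Left, percent of promoters with a gene-start region in Ubc9-control only or in H1-WT only (vertical axis) by GC content of the 300 base promoter window (horizontal axis), with exact 95% intervals. Right, median difference of score percentile by GC content of the gene's most GC-rich promoter, Ubc9-control minus H1-WT (circles) and Ubc9-depleted minus H1-TKO (squares); both are highest at 80% GC or more.

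Short motifs differed in how they were spread over the classes. The GC box GGGCGG, bound by SP and KLF factors, was found on either strand in 64.3% of Ubc9-control only, 50.8% of H1-WT only, 68.1% of shared and 46.2% of all promoters. The ETS motif CCGGAAG was in 11.01%, 10.3%, 19.2% and 11.6%, and the NFY box CCAAT in 28.7%, 29.2%, 41.7% and 38.2%, so neither separated the classes of 1 list only, and both were less frequent there than in shared promoters. Promoters of neither list had the ETS motif in 3.40% and the NFY box in 36.2% of cases. The YY1 motif AAGATGGC was in 4.22% (3.11 to 5.59) of Ubc9-control only and 1.57% (0.81 to 2.72) of H1-WT only promoters, against 4.50% of shared and 3.05% of all. CpG-containing motifs overlap in what they count with CpG content itself, and a match of letters is not a bound site. In the promoters printed above, the GC box was found in Lifr and Gnl3, the ETS motif in Mettl3 and the SOX motif CATTGT in Nanog.

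Unshared regions were not spread evenly over the chromosomes. The ratio of unshared Ubc9-control to unshared H1-WT regions had a median of 0.734 over the 19 autosomes, but was 0.385 (0.351 to 0.423) on chromosome 6, with 618 against 1604 regions, 0.396 (0.358 to 0.439) on chromosome 8, 0.418 (0.371 to 0.471) on chromosome 9 and 0.433 (0.364 to 0.514) on chromosome 19. Shared regions on these chromosomes also ranked lower in Ubc9-control, with median differences of -6.22, -3.63, -3.62 and -3.81 points against a median of -0.63 over autosomes. On chromosomes 8, 9 and 19 the low ratio ran along the whole chromosome: all 13 windows of 10 Mb on chromosome 8, all 13 on chromosome 9 and all 6 on chromosome 19 were below the autosomal median. The X chromosome had a ratio of 1.07 (0.94 to 1.23) and a median difference of 1.44 points.

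Chromosomes 6 and 14 instead changed along their length, in blocks whose bounds were set after the windows had been seen. On chromosome 6 the first 50 Mb held 101 unshared Ubc9-control against 584 unshared H1-WT regions, a ratio of 0.173 (0.139 to 0.214). From 50 to 80 Mb the numbers were 263 and 85, a ratio of 3.09 (2.41 to 4.00), and from 80 to 150 Mb 254 and 935, a ratio of 0.272 (0.236 to 0.312). On chromosome 14 the ratio was 1.27 from 0 to 50 Mb, 0.161 (0.121 to 0.211) from 50 to 90 Mb, with 62 against 385 regions, and 1.17 beyond. Shared regions shifted the same way, with median differences of -7.95, 8.96 and -7.71 points in the blocks of chromosome 6 and 3.07, -12.1 and 0.54 points in those of chromosome 14. The perturbed lists, Ubc9-depleted to H1-TKO, had ratios of 0.544, 2.17 and 0.720 on chromosome 6 and 1.02, 0.368 and 1.11 on chromosome 14, beside an autosomal median of 0.760. The interval of the last block of chromosome 6, 0.651 to 0.797, spans that median. Over whole chromosomes the perturbed lists had a ratio of 0.760 on chromosome 6, equal to the autosomal median, and 0.649 on chromosome 9. The ratio was 0.883 on chromosome 8 and 0.967 on chromosome 19. The low whole-chromosome ratios of the control lists on chromosomes 6, 8 and 19 thus did not recur there. What sets these blocks and chromosomes apart was not tested.

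**Figure D5:**
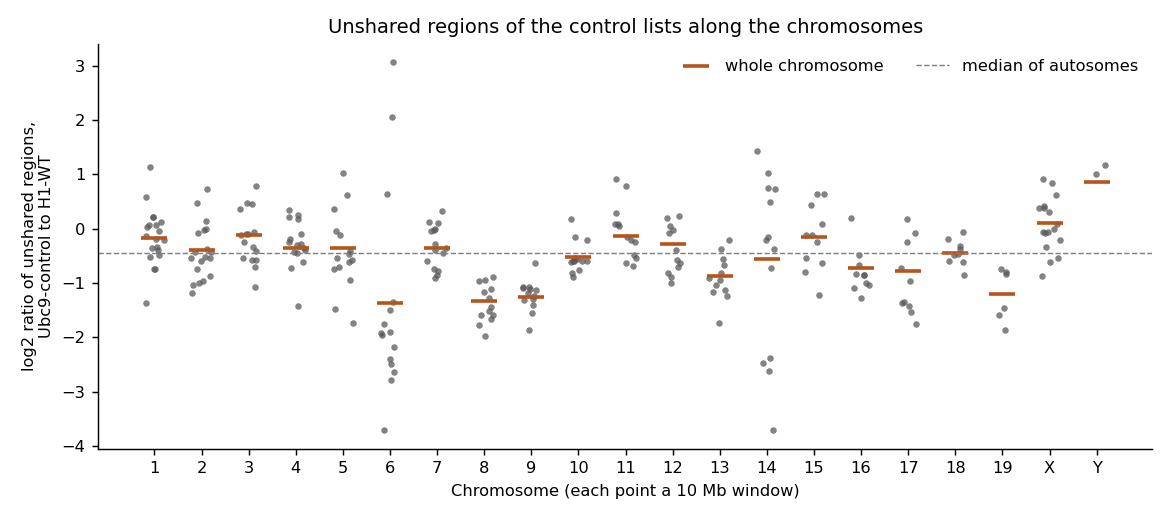
log2 ratio of unshared Ubc9-control to unshared H1-WT regions (vertical axis) by chromosome (horizontal axis), with a point for each 10 Mb window that holds at least 20 unshared regions and a bar for the whole chromosome; the dashed line is the median of the autosomes, a ratio of 0.734. All windows of chromosomes 8, 9 and 19 lie below the line, and windows of chromosomes 6 and 14 lie on both sides.

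Genes that were lower in Ubc9-control or found in H1-WT only made up a larger share there than all genes did, and genes of the opposite direction a smaller one. Genes on chromosomes 6, 8, 9, 14 and 19 made up 22.5% of all genes, 18.8% (16.6 to 21.2) of genes in Ubc9-control only, 28.9% (25.8 to 32.2) of genes in H1-WT only, 18.4% (15.4 to 21.8) of those higher by 30 points and 35.9% (31.4 to 40.6) of those lower by 30 points. These chromosomes were picked after the unshared regions of the same lists had been seen, so the shares restate that pattern for genes. Chromosomes 13, 16 and 17 were left out, although their ratios (0.547, 0.607 and 0.579) were below that of chromosome 14 (0.677). In the block of chromosome 14 from 50 to 90 Mb, which holds Mettl3, Pnp2, Supt16 and Tdh, 11 of 391 genes had a region in Ubc9-control only and 44 in H1-WT only. Of its 127 genes in both lists, 1 was higher and 24 lower by 30 points. In the middle block of chromosome 6, which holds Tcf7l1, Retsat and Elmod3, 24 of 176 genes were in Ubc9-control only and 2 in H1-WT only. Over all genes the shares in 1 list only were 5.2% and 3.67%. Of all genes in both lists 5.44% were higher and 4.15% lower. The bounds of these blocks came from the same lists. The genes Lifr on chromosome 15, Tfcp2l1 and Gbx2 on chromosome 1 and Gpat2 on chromosome 2 lay outside these chromosomes.

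The Y chromosome held regions in both lists. Ubc9-control had 150 regions there, 82 of them unshared, and H1-WT had 123, 45 of them unshared. Ddx3y, an RNA helicase gene, stood at 83.0 in Ubc9-control and 44.1 in H1-WT and Uty, a demethylase paralog, at 63.1 and 21.5, while Uba1y (26.5) and Eif2s3y (24.8) had a region in Ubc9-control only. None of these 4 genes had a region in the H1-TKO list, and all 4 had one in Ubc9-depleted cells. Gm52481, also on the Y chromosome, went the other way, with a region in H1-WT only (96.7) and in both perturbed lists.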

How the data were processed

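Each group's list of ATAC-seq regions was deposited by the authors as positions with a score per region, 1 list per group made from both replicates. Per the submitters' processing notes reads were handled with MACS 1.4.2-1, CASAVA 1.8.2, Picard and Bowtie2 on the build mm10; their settings, and how replicates were combined, are not given in the sources used here. The lowest deposited scores were 50.3 in the Ubc9-control list and 50 in the H1-WT list. The depth of the libraries is unknown and affects how many regions are found, so neither widths nor totals were compared between lists.

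From these lists, overlaps of 1 bp or more, score percentiles within a list (ties at their mid-rank) and counts per gene, chromosome and 10 Mb window were computed with Python 3.11.15, pandas 2.3.3 and scipy 1.17.1. The overlap step was tested on simulated data and gave the same 35143 and 38319 shared regions as bedtools on the lists. Genes and promoters came from RefSeq tables for GRCm38.p6. The table of promoters gave 17492 genes a strand and starts. Gene lists matched 580 of 594 entries. The members and lists were chosen with earlier results of these data known. Named genes are, per gene list, up to 4 found in 1 control list only in each direction and the 2 largest differences each way; the 8 highest-ranked genes in 1 list only, window-edge cases left out; the 8 largest differences each way; the 5 largest and 5 smallest differences in unshared regions within a gene and 10 kb around it; and the genes nearest to the 8 highest-scoring unshared regions of each list. Not every gene so picked is described, and any other gene was chosen after its values were seen.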

Additional observations from a re-analysis of the deposited data

Results flagged for a closer look

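Regions on unplaced and unlocalized scaffolds enter none of the comparisons by chromosome or gene. The Ubc9-control list held 75 such regions, of which 23 were unshared, with a highest score of 878. The H1-WT list held 109, of which 51 were unshared, with a highest score of 1496. They were picked out because they are signal in data that the comparisons leave aside. No group had more than 1 list, so no sample could be checked against others of its group.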

How the results depend on the processing

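No paired analysis was possible because each deposited list pools both replicates of its group, and for the same reason no replicate could be left out. Requiring an overlap of 0.5 of the shorter region, a width of 100 bp or joined neighbours left both shares of regions with a partner within their intervals. Keeping regions that score 100 or more in the counted list, they were 87.5% for Ubc9-control and 81.0% for H1-WT, with that minimum in both lists 76.4% and 67.7%, and among the 20000 top-scoring regions 69.8% and 73.1%, which turned their order. Without chromosomes 6, 8, 9, 14 and 19, an alternative chosen after seeing the data, they were 74.1% and 71.0%. The rank correlation was 0.66 with H1-WT regions as the unit. Genes in 1 list only numbered 489 in Ubc9-control and 337 in H1-WT with a score of at least 100; the other 6 alternatives for these counts stayed within 1.5 times. With that minimum, unshared regions lay at gene starts, inside and outside genes in 12.4%, 32.8% and 54.8% of Ubc9-control and 6.76%, 37.5% and 55.8% of H1-WT cases. The ratios of unshared regions became 0.312, 0.251, 0.236, 0.552 and 0.355 on chromosomes 6, 8, 9, 14 and 19, beside an autosomal median of 0.566. Chromosome 14 lay below that median by its ratio, but its median difference of -0.59 points was above the autosomal -0.63. With the same minimum, added after seeing the data, the Ubc9-control only share of promoters with 80% GC or more was 8.16%, against 1.14% at 40 to under 50% GC. The cause of these shifts was not tested. The unknown depth limits every share, since a region missing from a list may lie just under its score minimum.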

Other observations

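At some long genes the unshared regions of 1 list outnumbered those of the other. Over all regions 25% of the Ubc9-control and 30.9% of the H1-WT list were unshared. Tenm3, a teneurin gene of neural wiring on chromosome 8, had 2 of 15 Ubc9-control and 27 of 42 H1-WT regions unshared in the gene body or up to 10 kb beyond its ends. The numbers were 1 of 16 and 19 of 35 at Auts2 on chromosome 5 and 0 of 4 and 14 of 18 at Cmip on chromosome 8. They were 1 of 8 and 15 of 22 at Vps13d on chromosome 4 and 3 of 26 and 15 of 40 at Cntnap2 on chromosome 6. In the other direction Ctnna2, an alpha-catenin gene on chromosome 6, had 12 of 16 and 0 of 4, and Klf12, a transcription factor gene on chromosome 14, 9 of 17 and 0 of 8. Grik3 on chromosome 4 had 9 of 16 and 1 of 10, Mtus2 on chromosome 5 had 9 of 17 and 2 of 10, and Tcf7l1 on chromosome 6 had 7 of 15 and 0 of 9. Tenm3 and Cmip lie on chromosome 8, Cntnap2 in the first and Ctnna2 and Tcf7l1 in the middle block of chromosome 6, where unshared regions were shifted the same way. Neither Tenm3 nor Klf12 had a region at an annotated start in either control list.

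The highest-scoring unshared regions lay mostly away from gene starts. In the Ubc9-control list the first was chr14:14346919-14348931 at the start of Il3ra, at percentile 97.9, and it overlapped regions of both perturbed lists. The next, chr3:153173487-153173932, lay 24.3 kb from St6galnac3 at percentile 96.6. Further down, chr4:97241700-97242493, 336 kb from the transcription factor gene Nfia, stood at 94.4 and recurred in Ubc9-depleted but not in H1-TKO cells. In the H1-WT list the first, chr6:3183944-3184095, lay 188 kb from Samd9l at percentile 99.8 and overlapped a region of Ubc9-depleted but not of H1-TKO cells. A region 2.53 kb from Aadacl2fm3, chr3:59879843-59880146, stood at 99.2, and chr6:4446366-4446878, 58.7 kb from the collagen gene Col1a2, at 96.2, and both recurred in H1-TKO but not in Ubc9-depleted cells.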
